A study of Xenopus laevis with 51 samples.

Results

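The hindbrain of juvenile Xenopus laevis frogs was compared 7 days after complete transection of the spinal cord (spinal cord injury, SCI) with the hindbrain of unoperated frogs. The samples were taken by their labels, 3 SCI libraries of 7 days and 3 unoperated libraries, 6 of the 51 libraries of a series with 17 groups. Each library held the RNA of 5 pooled hindbrains. The hindbrain of vertebrates holds the cell bodies of reticulospinal and other neurons whose axons run down the cord, so a thoracic transection cuts axons while their cell bodies lie far from the wound. Tadpoles of this species regrow these axons and swim again, whereas frogs after metamorphosis do not. In injured nervous tissue, microglia and macrophages take up debris and express complement and antigen presentation genes, oligodendrocytes remake myelin, and axotomised neurons can switch on growth-associated and neuropeptide genes.

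Frogs of both groups were unsexed albino juveniles from 1 supplier, 1 to 3 months past metamorphosis, kept in 12 h of light and 12 h of dark at 22 °C. The SCI frogs were anaesthetised with MS222, had the cord cut through at the mid-thoracic level, were kept in water with gentamicin and gave their hindbrains 7 days later. The unoperated frogs had no surgery. No sham-operated group was analysed here, so injury, anaesthesia, surgery and antibiotic cannot be told apart. The same 3 unoperated libraries are the controls for frogs of 3 days, 7 days and 3 weeks. Their library names carry the letter R, which no other library of the series has and which the labels do not explain, so whatever it stands for cannot be told apart from the unoperated state. Further libraries set beside these came from frog hindbrain 3 days and 3 weeks after SCI, from the hindbrain of albino stage 53 tadpoles 7 days after SCI and from their unoperated controls, with 3 libraries each.

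Expression was given as FPKM (fragments per kilobase of transcript, scaled to the depth of the library) for 24381 entries (gene models) per library under 13472 distinct symbols, which are human gene names. X. laevis is allotetraploid, so most symbols have an L and an S homeolog, and the entry names do not say which is which. Read counts were not used here. The steps between the FPKM of weakly expressed entries put the depth of the SCI libraries at 1.12, 1.09 and 1.34 times that of the first unoperated library, against 1, 0.942 and 0.986 for the unoperated libraries. Libraries correlated across 18433 entries with Pearson's r of 0.986 to 0.987 within the SCI group, 0.980 to 0.985 within the unoperated group and 0.973 to 0.984 between the groups, which describes likeness over genes that are not independent. Neuronal markers were strong in all 6 libraries, with SNAP25, a protein of synaptic vesicle fusion, at 823, 938 and 919.8 FPKM in the SCI libraries, against 759, 738 and 697 FPKM in the unoperated libraries (adjusted p = 0.17). The spread between libraries here is that between pools of animals.

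Of 20102 entries tested, each averaging 0.45 FPKM or more in the SCI or the unoperated libraries, 286 (1.42%) differed at an adjusted p of at most 0.05 in limma with Benjamini-Hochberg adjustment, and such entries are said below to have risen or fallen. After SCI 192 entries (0.955%) rose and 94 (0.468%) fell, under 258 distinct symbols. Most changes were small. The median absolute log2 fold change of the 286 entries was 0.53, with a range of 0.29 to 2.60, and 24 rises and 9 falls reached 2-fold. Fold changes are given on the log2(FPKM + 0.5) scale, which understates those of weakly expressed genes, and the median over all tested entries was 0.02. The 3 SCI libraries did not overlap the 3 unoperated libraries in any of the 286 entries, as in 4982 (24.8%) of all tested entries, 2812 (14%) of them higher and 2170 (10.8%) lower after SCI. The number of calls depended on single libraries. Without SCI library 1, 2 or 3 it was 78, 41 or 62, and without unoperated library 1, 2 or 3 it was 215, 14 or 73. All 286 entries kept their direction in each of these 6 fits, which was fixed in advance because their groups did not overlap. Of the 286 entries, 12 were called in all 6 fits and 106 in none. Among the genes named below for the comparison at 7 days, NPY, APOE, LIPE, C1QA, JHDM1D and the more strongly lowered HMGCS1 entry were called in each of the 6.

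**Figure D1:**
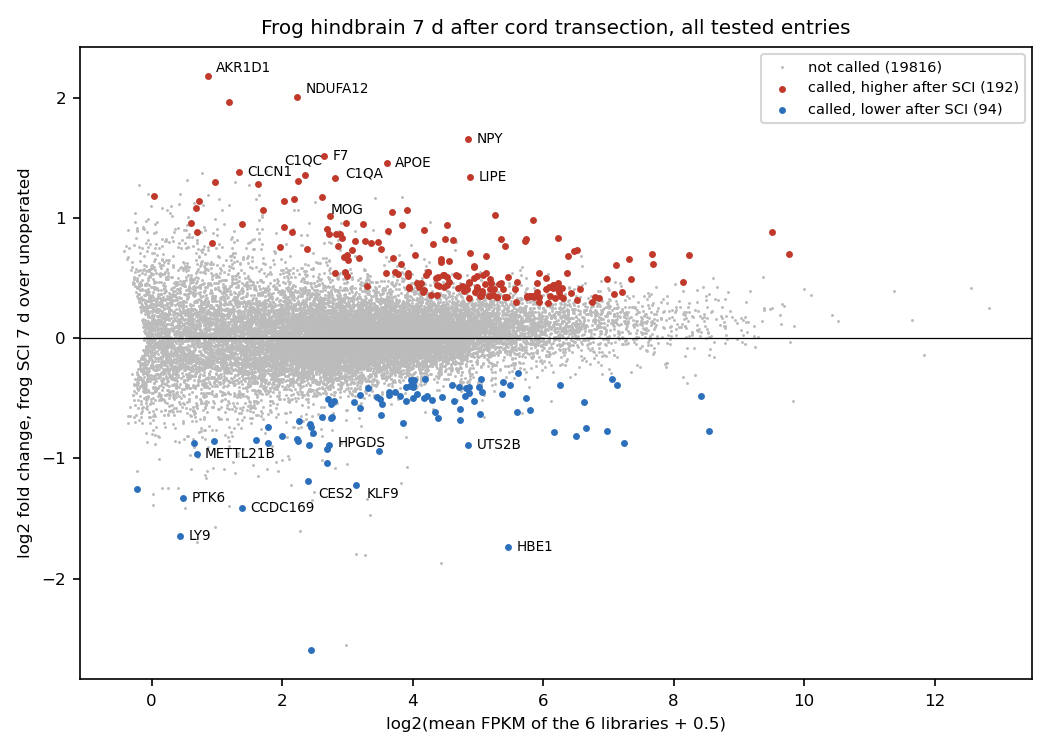
Log2 fold change (SCI 7 d over unoperated) against log2(mean FPKM of the 6 libraries + 0.5) for 20102 tested entries. Red points are the 192 entries that rose and blue points the 94 that fell, grey points did not pass the test, and names mark genes described in the text. The strongest called rises and falls have low to moderate mean FPKM.

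Genes of microglia and macrophages had the largest share of rises among the 41 gene lists examined. Of 22 tested entries in a list of 17 marker genes, 5 (22.7%) rose and none fell, with a median log2 fold change of 0.57, and 20 of the 22 lay above 0. The 5 were the 3 C1q genes and both entries of CD74, which other lists below also hold. The summed FPKM of the list was 115 to 132 FPKM in the SCI libraries, against 62.8 to 83.7 FPKM in the unoperated libraries. In bulk tissue a change in the number of cells and a change in RNA per cell cannot be told apart. C1QA, C1QB and C1QC encode the chains of complement component C1q, which tags synapses and debris for removal, and microglia are their main source in the brain. C1QA had 9.07, 8.49 and 11.1 FPKM in the SCI libraries, against 3.8, 3.44 and 3.17 FPKM in the unoperated libraries (log2 fold change 1.33, SE 0.12, adjusted p = 0.0056). C1QC had 5.92, 6.58 and 8.03 FPKM in the SCI libraries, against 1.94, 2.35 and 2.81 FPKM in the unoperated libraries (log2 fold change 1.36, SE 0.15, adjusted p = 0.01). C1QB had 10.2, 10.3 and 9.01 FPKM in the SCI libraries, against 5.02, 4.09 and 5.47 FPKM in the unoperated libraries (log2 fold change 0.95, SE 0.12, adjusted p = 0.015). For each chain, every SCI library was above every unoperated one, as for every entry that rose. The 3 entries lie side by side on JGI v7b scaffold 68269, C1QA at 26002 to 31626, C1QC at 42311 to 42919 and C1QB at 47315 to 50421, all on the plus strand.

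Other microglial markers did not pass the test. TREM2, a microglial lipid receptor that was picked here after its values were seen, had 2.06, 5.44 and 2.95 FPKM in the SCI libraries, against 1.16, 0.526 and 1.67 FPKM in the unoperated libraries, and missed the threshold (adjusted p = 0.11). Of a wider list of complement and coagulation genes the C1q chains were the 3 that rose, of 25 tested entries (12%), and none fell. The coagulation protease F7, outside that list but among the strongest rises, had 9.76, 9.87 and 6.68 FPKM in the SCI libraries, against 2.95, 2.56 and 2.57 FPKM in the unoperated libraries (log2 fold change 1.52, SE 0.16, adjusted p = 0.0082).

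Antigen presentation genes gave 3 rises and no fall among 50 tested entries (6%), with a list median of -0.01. The 3 rises were both entries of CD74 and B2M. CD74, the invariant chain that escorts MHC class II, rose in both entries. The more abundant had 44.7, 52.2 and 56 FPKM in the SCI libraries, against 22.5, 23.3 and 28.6 FPKM in the unoperated libraries (log2 fold change 1.02, SE 0.11, adjusted p = 0.0097), and the other 10.001, 11 and 10.9 FPKM after SCI and 5.73, 6.65 and 7.14 FPKM unoperated (log2 fold change 0.67). B2M, the light chain of MHC class I, had 57.7, 69.99 and 73.5 FPKM in the SCI libraries, against 35.7, 37.8 and 40.2 FPKM in the unoperated libraries (log2 fold change 0.81, SE 0.10, adjusted p = 0.011). HLA-DQA1, an MHC class II alpha chain outside the list, had 5.28, 9.11 and 4.56 FPKM in the SCI libraries, against 1.59, 2.22 and 2.78 FPKM in the unoperated libraries. Its SCI libraries spread 2-fold and its adjusted p of 0.0497 (log2 fold change 1.31) was just inside the threshold, passed in no fit that left out a library. SLA, an adaptor that damps antigen receptor signalling in lymphocytes, had 2.11, 2.37 and 2.31 FPKM after SCI and 0.451, 0.478 and 1.03 FPKM unoperated (log2 fold change 1.30, adjusted p = 0.032). A single granulocyte marker rose among 8 tested, the iron-binding protein LTF, with 9.07, 8.96 and 7.82 FPKM after SCI and 3.7, 4.23 and 5.74 FPKM unoperated (log2 fold change 0.87). The lymphocyte receptor LY9 fell, with 0.225, 0.231 and 0 FPKM in the SCI libraries, against 1.01, 1.61 and 2.05 FPKM in the unoperated libraries (log2 fold change -1.64, SE 0.26, adjusted p = 0.029), the 0 being listed as such.

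APOE, LIPE and AKR1D1 rose. APOE, the main cholesterol carrier of the brain, had 14.5, 16.9 and 20.6 FPKM in the SCI libraries, against 5.79, 6.31 and 5.76 FPKM in the unoperated libraries (log2 fold change 1.46, SE 0.12, adjusted p = 0.0046). LIPE, the hormone-sensitive lipase that frees fatty acids from stored fat, had 43.7, 33.7 and 48.5 FPKM in the SCI libraries, against 16.6, 15.8 and 15.9 FPKM in the unoperated libraries (log2 fold change 1.34, SE 0.12, adjusted p = 0.0056). Both genes lay above the controls in all 3 SCI libraries, as did every entry that rose. AKR1D1, a reductase that saturates the A ring of steroids, had the largest rise of any called entry with a symbol, with 2.14, 3.06 and 2.21 FPKM in the SCI libraries, against 0, 0.077 and 0.442 FPKM in the unoperated libraries (log2 fold change 2.18, adjusted p = 0.012), the first unoperated library being listed at 0. It was the 1 rise among 28 tested entries of steroid and retinoid metabolism.

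Of 37 tested entries for cholesterol synthesis and uptake, 4 (10.8%) fell and 1 (2.70%) rose, 29 had a log2 fold change below 0, and the median was -0.15. Their summed FPKM averaged 1097 in SCI libraries and 1271 in unoperated libraries, and the 2 groups did not overlap. HMGCS1, which makes the HMG-CoA that feeds the pathway, fell in both entries. One had 60.3, 69.5 and 65.2 FPKM in the SCI libraries, against 111, 117 and 116 FPKM in the unoperated libraries (log2 fold change -0.82, SE 0.07, adjusted p = 0.0046), and the other 116, 127 and 121 FPKM after SCI and 158, 162 and 155 FPKM unoperated (log2 fold change -0.39). SQLE, the squalene epoxidase, had 18.4, 21.8 and 21.4 FPKM in the SCI libraries, against 30.5, 30.9 and 32 FPKM in the unoperated libraries (log2 fold change -0.59, SE 0.08, adjusted p = 0.017). Of 41 tested entries for fatty acid and lipid metabolism, 2 rose, APOE and the elongase ELOVL5 (log2 fold change 0.29), and 1 fell, the desaturase FADS1, with 5.45, 4.001 and 5.003 FPKM after SCI and 7.69, 7.87 and 7.85 FPKM unoperated (log2 fold change -0.65).

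Myelin genes lay higher after SCI as a group, though few passed the test. Of 20 tested entries 3 (15%) rose and 1 (5%) fell, 17 had a log2 fold change above 0, and the median was 0.26. Their summed FPKM was 20819.9 to 22835 FPKM in the SCI libraries, against 16663 to 18311 FPKM in the unoperated libraries. MOG, a glycoprotein of the outer face of central myelin, had 8.74, 8.58 and 6.66 FPKM in the SCI libraries, against 3.41, 3.32 and 3.02 FPKM in the unoperated libraries (log2 fold change 1.17, SE 0.13, adjusted p = 0.0097). UGT8, which makes the myelin lipid galactosylceramide, had 306, 346 and 329 FPKM in the SCI libraries, against 232, 235 and 239.9 FPKM in the unoperated libraries (log2 fold change 0.47, SE 0.07, adjusted p = 0.029). MYRF, the transcription factor that switches on myelin genes, had 20.8, 19.4 and 23.3 FPKM after SCI and 16.2, 13.3 and 14.1 FPKM unoperated (log2 fold change 0.53). By contrast OLIG1, a factor of the oligodendrocyte lineage from its progenitors on, fell, with 20.9, 24.6 and 23.3 FPKM after SCI and 32.3, 33.6 and 30.5 FPKM unoperated (log2 fold change -0.48). MBP, a structural protein of compact myelin, was picked here after its values were seen. In both entries it was above the controls in every SCI library, as were 14% of all tested entries. Neither entry passed the test (log2 fold changes 0.40 and 0.26, adjusted p = 0.18 and 0.55).

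Other glial and matrix genes moved singly. HAPLN2, a link protein that binds hyaluronan at the nodes of Ranvier, had 71.1, 68.1 and 87.9 FPKM in the SCI libraries, against 43.4, 36.8 and 34 FPKM in the unoperated libraries (log2 fold change 0.98, SE 0.12, adjusted p = 0.012). TIMP2, an inhibitor of matrix metalloproteases, had 83.4, 82.1 and 80.5 FPKM in the SCI libraries, against 58.7, 60.7 and 61.4 FPKM in the unoperated libraries (log2 fold change 0.44, SE 0.06, adjusted p = 0.015). These were the 2 rises among 47 tested matrix entries, of which none fell. FABP7, a fatty acid binding protein of radial glia, had 49.7, 57.7 and 48.9 FPKM in the SCI libraries, against 84.7, 108 and 78.2 FPKM in the unoperated libraries (log2 fold change -0.78, SE 0.12, adjusted p = 0.029). It was the 1 fall (3.33%), with no rise, among 30 tested entries of radial glia and astrocytes. The list as a whole went the other way, with 20 of the 30 entries above 0 and a median log2 fold change of 0.17.

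The clearest change in a neuronal gene was in NPY, a peptide transmitter that mammalian sensory neurons switch on after axotomy. NPY had 51.8, 35.3 and 43.1 FPKM in the SCI libraries, against 12.6, 12.3 and 15 FPKM in the unoperated libraries (log2 fold change 1.66, SE 0.14, adjusted p = 0.0046), so that the lowest SCI library was more than 2-fold above the highest unoperated one. It was the 1 rise, with no fall, among 67 tested entries of the neuropeptide list (1.49%), which does not hold the peptide UTS2B. UTS2B, a urotensin-related peptide expressed in brainstem and spinal motor neurons of vertebrates, had 17.3, 18.8 and 23.4 FPKM in the SCI libraries, against 38, 36 and 36.6 FPKM in the unoperated libraries (log2 fold change -0.89, SE 0.10, adjusted p = 0.011). CRHBP, which binds and buffers corticotropin-releasing hormone, had 9.07, 11.4 and 11.2 FPKM in the SCI libraries, against 6.44, 6.34 and 4.73 FPKM in the unoperated libraries (log2 fold change 0.81, SE 0.14, adjusted p = 0.035).

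Of 83 tested entries linked to the response to axon injury, 2 (2.41%) rose and 2 (2.41%) fell. Besides NPY the rise was in PRPH, an intermediate filament that mammalian neurons raise when their peripheral axons are cut, with 175, 194 and 212 FPKM in the SCI libraries, against 137, 118 and 112 FPKM in the unoperated libraries (log2 fold change 0.66, SE 0.10, adjusted p = 0.027). Both falls were in KLF9, a Krüppel-like factor that restrains axon growth in mammalian retinal neurons and that thyroid hormone and glucocorticoids induce. One KLF9 entry, on scaffold 67832, had 4.58, 3.95 and 5.87 FPKM in the SCI libraries, against 12.8, 11.3 and 11.1 FPKM in the unoperated libraries (log2 fold change -1.22, SE 0.14, adjusted p = 0.01), and the other, on scaffold 268711, 3.96, 3.21 and 3.97 FPKM after SCI and 8.57, 6.46 and 9.54 FPKM unoperated (log2 fold change -1.03, SE 0.15, adjusted p = 0.025). The entries of 2 scaffolds thus lay lower in all 3 SCI libraries, as did every entry that fell. Ion channels gave 2 small rises among 59 tested entries, SCN4B, a sodium channel subunit, with 65.6, 59.8 and 61.2 FPKM after SCI and 48.5, 48.1 and 48.8 FPKM unoperated (log2 fold change 0.35), and KCNN3, a calcium-gated potassium channel, with 99.6, 98.6 and 104 FPKM after SCI and 83.2, 82.6 and 76.9 FPKM unoperated (log2 fold change 0.32).

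Thyroid hormone genes changed in both directions. Among 17 tested entries, 3 (17.6%) fell, the KLF9 entries and THRB, a hormone receptor that the hormone itself induces, and 1 (5.88%) rose. THRB had 3.18, 3.2 and 4.43 FPKM in the SCI libraries, against 6.11, 6.32 and 7.16 FPKM in the unoperated libraries (log2 fold change -0.79, SE 0.14, adjusted p = 0.04). DIO2, the deiodinase that activates the hormone, had 1.03, 0.878 and 0.856 FPKM in the SCI libraries, against 0, 0.204 and 0.194 FPKM in the unoperated libraries (log2 fold change 1.18, adjusted p = 0.041), with 1 control listed at 0. The other THRB entry had a log2 fold change of -0.35 (adjusted p = 0.18) and the other DIO2 entry one of 0.42 (adjusted p = 0.45). Of 28 tested entries for the response to stress hormones CRHBP rose and KLF9 fell. PER3, a clock gene, was the 1 rise among 39 tested clock entries, with 8.89, 9.33 and 8.48 FPKM after SCI and 6.29, 5.84 and 6.04 FPKM unoperated (log2 fold change 0.52).

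JARID2 and SUZ12 of Polycomb repressive complex 2 rose and EZH2 fell, although the call of EZH2 held in none of the 6 fits that left out a library. JARID2, which guides the complex to its targets, rose in both entries, 1 of them with 992, 958 and 875 FPKM in the SCI libraries, against 481, 507 and 538 FPKM in the unoperated libraries (log2 fold change 0.89, SE 0.10, adjusted p = 0.0097) and the other with 276, 244 and 235 FPKM after SCI and 141, 157 and 166 FPKM unoperated (log2 fold change 0.70). SUZ12, a core subunit, had 123, 108 and 99.7 FPKM in the SCI libraries, against 60.1, 68.1 and 70.8 FPKM in the unoperated libraries (log2 fold change 0.72, SE 0.09, adjusted p = 0.017), while its other entry had 11.5 ± 0.610 FPKM after SCI and 10.9 ± 0.574 FPKM unoperated (SD, n = 3 each, log2 fold change 0.08, adjusted p = 0.64). EZH2, the methyltransferase subunit, had 2.39, 1.97 and 2.88 FPKM in the SCI libraries, against 4.1, 4.76 and 4.9 FPKM in the unoperated libraries (log2 fold change -0.81, SE 0.15, adjusted p = 0.041). JHDM1D, a demethylase of repressive histone marks, had 57.8, 49.2 and 52.2 FPKM in the SCI libraries, against 30.8, 31.6 and 30.4 FPKM in the unoperated libraries (log2 fold change 0.77, SE 0.07, adjusted p = 0.0056). TET3, which oxidises methylated cytosine, had 15.4, 14.7 and 15.3 FPKM after SCI and 19.9, 21.8 and 22.4 FPKM unoperated (log2 fold change -0.48). In all, 4 of 80 tested entries of the chromatin list rose (5%) and 2 fell (2.5%), with a median of -0.02.

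Some chaperones of the endoplasmic reticulum and cytosol fell slightly. HSPA5, the main chaperone of the endoplasmic reticulum, fell in both entries, with 65.1, 72.4 and 61.2 FPKM after SCI and 89, 84 and 86.8 FPKM unoperated in one (log2 fold change -0.39) and 36.2, 38.2 and 33.8 FPKM after SCI and 48.1, 46 and 45.6 FPKM unoperated in the other (log2 fold change -0.36). HYOU1, which works with it, had 13.3, 14 and 13.3 FPKM after SCI and 17.5, 19.4 and 19.9 FPKM unoperated (log2 fold change -0.47). HSPH1, a heat shock protein of the cytosol, fell in both entries (log2 fold changes -0.42 and -0.45). MTHFD2, a mitochondrial enzyme of folate metabolism, was the 1 rise in the amino acid and stress list, with 47.1, 51.7 and 56.9 FPKM in the SCI libraries, against 32.6, 27 and 27.7 FPKM in the unoperated libraries (log2 fold change 0.82, SE 0.09, adjusted p = 0.01). In that list 3 of 54 tested entries fell (5.56%), and 2 of 35 heat shock entries did (5.71%).

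Changes in further lists were few. Of 106 tested entries of oxidative phosphorylation 1 rose and 1 fell. NDUFA12, a subunit of complex I, had 8.71, 5.81 and 6.18 FPKM in the SCI libraries, against 1.47, 0.518 and 2.48 FPKM in the unoperated libraries (log2 fold change 2.01, SE 0.35, adjusted p = 0.037), and CYCS, cytochrome c, had 37.4, 49.8 and 45.5 FPKM after SCI and 66.9, 65.6 and 67.6 FPKM unoperated (log2 fold change -0.60). PDK2, a kinase that slows entry of pyruvate into mitochondria, was the 1 rise among 46 glycolysis entries, with 15, 14.8 and 16 FPKM after SCI and 9.99, 10.4 and 10.3 FPKM unoperated (log2 fold change 0.55). Among 106 RNA splicing and RNA-binding entries PRPF31 rose (log2 fold change 0.54), the cold-inducible CIRBP fell to 267, 301 and 291 FPKM after SCI, against 372, 412 and 414 FPKM unoperated (log2 fold change -0.48), and the splicing factor SRSF5 fell (log2 fold change -0.34). Of 115 entries of Wnt, BMP and Notch signalling DKK3 (log2 fold change 0.65) and ID3 (0.39) rose and INHBB (-0.58) fell. PIM3, a kinase induced by STAT factors, was the 1 fall among 49 cytokine signalling entries (log2 fold change -0.45).

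The remaining strong changes belong to no common group. CLCN1, a chloride channel best known from skeletal muscle, had 3.19, 2.64 and 3.66 FPKM in the SCI libraries, against 0.632, 1.27 and 0.855 FPKM in the unoperated libraries (log2 fold change 1.38, SE 0.20, adjusted p = 0.023), while none of 17 skeletal muscle entries passed the test. HBE1, an embryonic globin, had the largest fall of any called entry with a symbol, with 10.4, 25.4 and 27.5 FPKM in the SCI libraries, against 54.4, 71.4 and 73.2 FPKM in the unoperated libraries (log2 fold change -1.73, SE 0.32, adjusted p = 0.042). The list of erythrocyte markers, which holds HBA1 and HBZ but not HBE1 or HBG2, summed to 748 to 867 FPKM in the SCI libraries, against 957 to 1316 FPKM in the unoperated libraries, and the part of blood content in the fall of globins was not tested. HBG2, another globin, fell less in 1 entry, to 263, 307 and 254 FPKM after SCI, against 500.3, 373 and 543 FPKM unoperated (log2 fold change -0.77, adjusted p = 0.043). The most abundant HBG2 entry had 1349, 1816 and 1413 FPKM after SCI and 1690, 1096 and 1391 FPKM unoperated, with overlapping groups (log2 fold change 0.14, adjusted p = 0.72). CES2, a carboxylesterase, fell in 2 entries that lie next to each other on scaffold 98999, from 1313181 to 1339862 and from 1361532 to 1408193. One had 2.33, 2.79 and 2.96 FPKM in the SCI libraries, against 6.15, 6.39 and 7.85 FPKM in the unoperated libraries (log2 fold change -1.19, SE 0.13, adjusted p = 0.01), and the other 5.09, 8.74 and 7.92 FPKM after SCI and 13, 14 and 15.2 FPKM unoperated (log2 fold change -0.94).

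CCDC169, a coiled-coil protein, had 1.32, 0.68 and 0.774 FPKM in the SCI libraries, against 2.23, 3.63 and 4.07 FPKM in the unoperated libraries (log2 fold change -1.41, SE 0.24, adjusted p = 0.036). PTK6, a tyrosine kinase of epithelia, had 0.556, 0.207 and 0.169 FPKM after SCI and 1.36, 1.5 and 1.61 FPKM unoperated (log2 fold change -1.33), and METTL21B, a protein methyltransferase, 0.544, 0.559 and 0.681 FPKM after SCI and 1.73, 1.62 and 1.55 FPKM unoperated (log2 fold change -0.96). Both were weakly expressed in either group. HPGDS, a prostaglandin D synthase of blood and immune cells, had 3.72, 4.96 and 3.26 FPKM after SCI and 6.88, 8.63 and 8.25 FPKM unoperated (log2 fold change -0.92), and TAF1A, a factor of RNA polymerase I, 2.67, 3.04 and 3.93 FPKM after SCI and 5.54, 5.88 and 7.73 FPKM unoperated (log2 fold change -0.89). The called entry with the largest fall of all carried no symbol, with 0.816, 1.40 and 0.909 FPKM in the SCI libraries, against 6.72, 8.75 and 11.1 FPKM in the unoperated libraries (log2 fold change -2.60, SE 0.20, adjusted p = 0.0046).

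**Figure D2:**
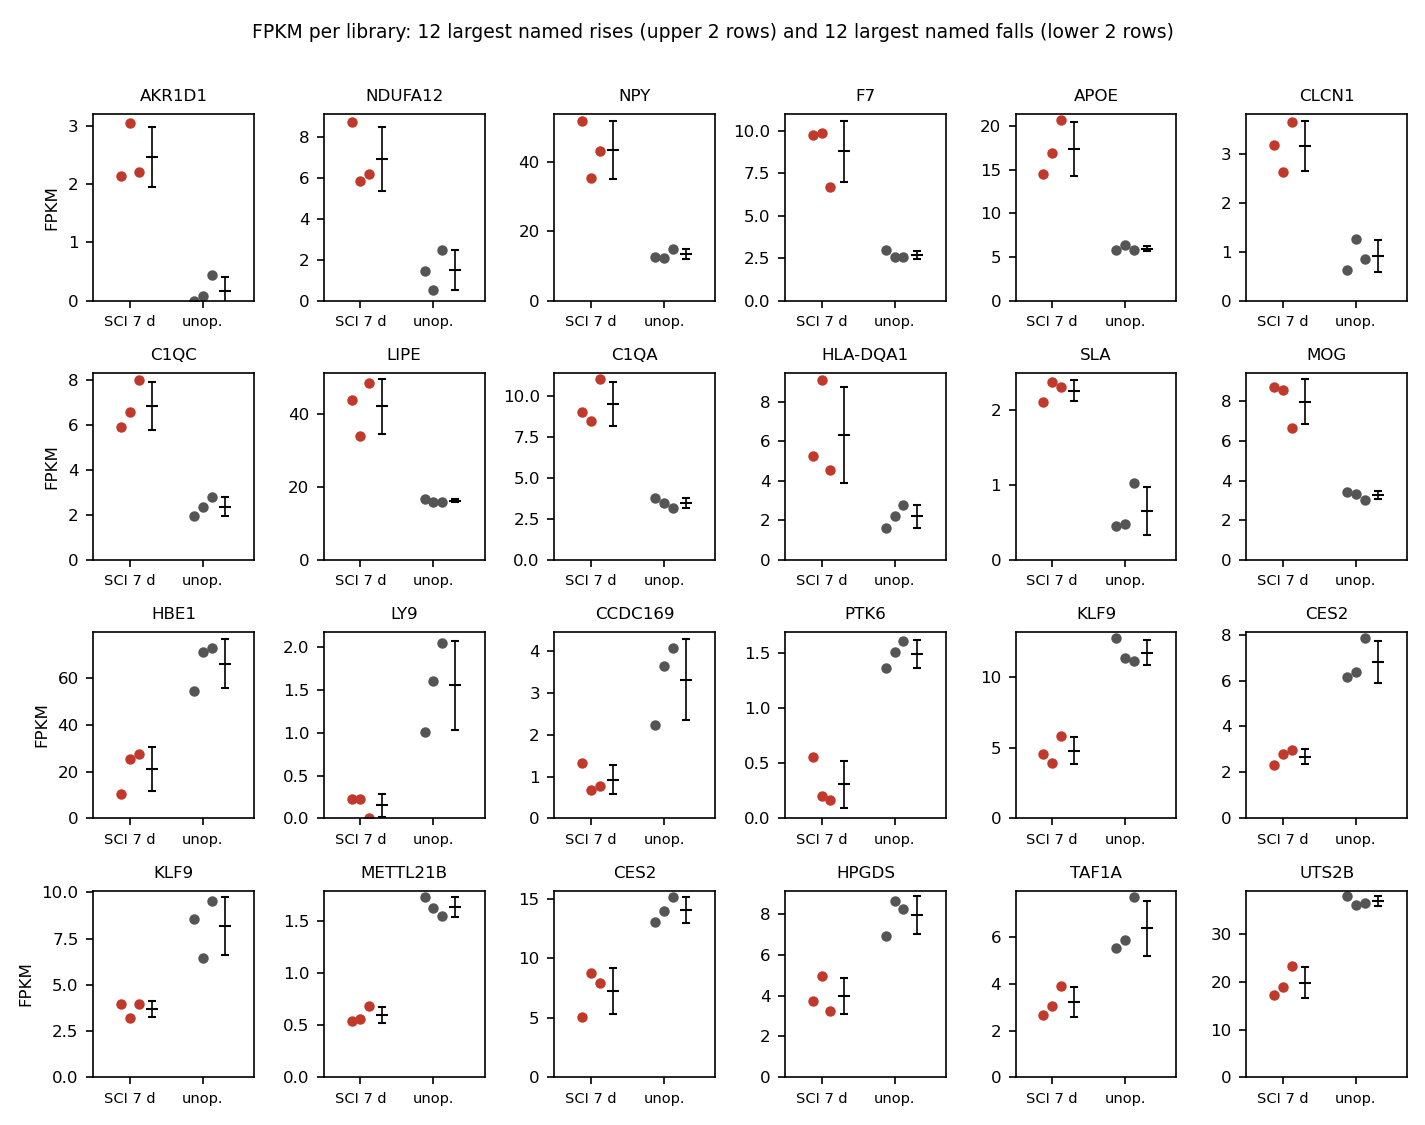
FPKM in each of the 3 SCI 7 d libraries (red) and the 3 unoperated libraries (grey), for the 12 entries with the largest rise and the 12 with the largest fall named by rule, with the mean and SD (n = 3) beside each group. Every axis starts at 0. The points of the 2 groups do not overlap in any panel because the naming rule required it, and 24.8% of all tested entries do not overlap either.

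Lists without any call at 7 days were those of neurons (24 tested entries, median log2 fold change 0.04), synaptic vesicles (0.13), axon guidance (-0.01), neurotransmitter receptors (-0.02), solute carriers (0.06), cell division (0.05), immediate early genes (-0.04), HOX and hindbrain patterning (0.07), ribosomal proteins (0.10) and the markers of erythrocytes, endothelium, meninges, choroid plexus, ependyma, skin and muscle. The erythrocyte list leaves out HBE1 and HBG2, each of which fell in 1 entry. A list without a call is not thereby shown to be unchanged. In a simulation of this comparison, 80% of 100 genes with a log2 change of 1 and 21% of 100 genes with one of 0.5 were recovered. The changed genes averaged 1 FPKM or more and noise was independent between genes. The rates therefore do not cover weaker entries or deviations that genes of a library share. They also hold only for 100 changed genes of each size among 20033, since the adjusted threshold depends on the share of changed genes. PCNA, a replication clamp and the most abundant of the cell division genes, had 11.2, 11.6 and 11.2 FPKM after SCI and 10.8, 10.4 and 9.84 FPKM unoperated (adjusted p = 0.4). RTN4, the gene of the axon growth inhibitor Nogo, had 153, 129 and 138 FPKM after SCI and 111, 110.1 and 119 FPKM unoperated (log2 fold change 0.30, adjusted p = 0.095).

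Markers of neighbouring tissues and of position along the axis varied between libraries. Lens and photoreceptor transcripts summed to 90.5, 244 and 134 FPKM in SCI libraries and to 77.9, 364 and 63.4 FPKM in unoperated libraries, and skin markers to 69.0, 39.8 and 30.5 FPKM in SCI libraries and to 28.1, 30.2 and 69.0 FPKM in unoperated libraries, so single libraries of both groups carried more of them. The 1 call among them was a weak entry of the lens crystallin CRYGD, listed at 0 in all 3 SCI libraries, against 0.414, 0.879 and 0.840 FPKM in the unoperated libraries. A more abundant CRYGD entry averaged 19.5 ± 16.9 FPKM after SCI and 18.0 ± 26.8 FPKM unoperated (SD, n = 3 each). Its groups overlapped (log2 fold change 0.96, adjusted p = 0.68). Choroid plexus markers summed to 87.5 to 110.2 FPKM in the SCI libraries, against 73.8 to 84.2 FPKM in the unoperated libraries. EN2, a marker of the border between midbrain and hindbrain and picked here after its values were seen, had 0.389, 0.690 and 0.266 FPKM in the SCI libraries, against 1.11, 2.70 and 3.62 FPKM in the unoperated libraries (log2 fold change -1.57, adjusted p = 0.066). HOXB7, a gene of more posterior levels and picked in the same way, had 0.680, 1.59 and 2.53 FPKM in the SCI libraries, against 0.347, 0 and 0.633 FPKM in the unoperated libraries, one of them listed at 0 (log2 fold change 1.32, adjusted p = 0.13). Neither passed the test, and the part of such differences in the results above was not tested. Both lay at or near the ends of the range of the 57 tested HOX and hindbrain patterning entries (-1.57 to 1.39). The median of these entries was 0.07, and MEIS2, the most abundant, had a log2 fold change of 0.06.

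**Figure D3:**
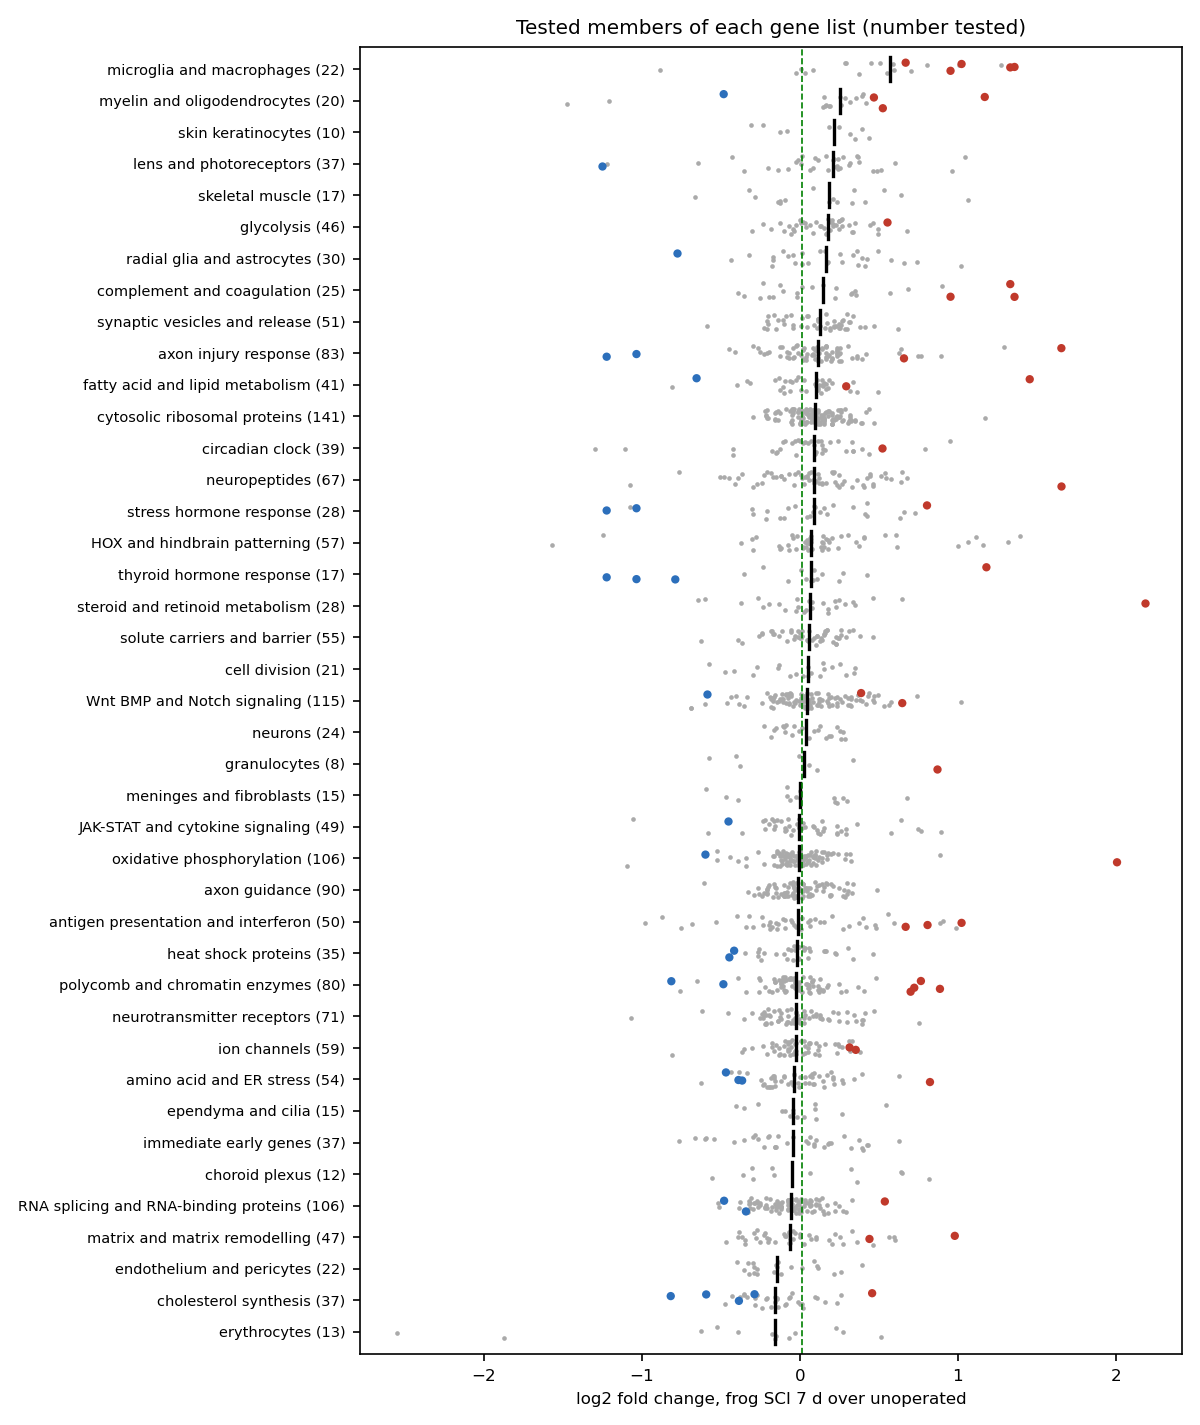
Log2 fold change (SCI 7 d over unoperated) of the tested entries of 41 gene lists, ordered by their median (black bar), with the number tested in brackets. Red points rose, blue points fell and grey points did not pass the test, and the dashed green line is the median of all tested entries (0.02). Microglial and myelin markers lie furthest to the right, cholesterol synthesis and erythrocyte genes furthest to the left.

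The other entry under the symbol of a called entry had the same sign for most called entries. Of 279 called entries with a symbol, 171 had exactly 1 other tested entry under the same symbol, and in 147 of these the other entry had the same sign. In 38 of the 171 the other entry was also called in the same direction and in none in the opposite. The counts are of called entries, so a symbol with both entries called is counted once for each. The share of same signs over all such symbols, called or not, was not counted. The median log2 fold change of the other entry was 0.30 where the called entry rose and -0.34 where it fell. Entries of 1 symbol can share reads, since the study split reads that fit both homeologs equally, so they are not independent.

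Few entries passed the test between 7 days and the other times after frog SCI, which does not show that the times are alike. Libraries of 7 days correlated with those of 3 days at Pearson's r of 0.968 to 0.985, much as with the unoperated libraries (0.973 to 0.984). Against 3 days, 5 of 20086 tested entries (0.0249%) differed, 1 higher (0.00498%) and 4 lower (0.0199%) at 7 days, and against 3 weeks 2 of 20058 (0.00997%) differed, both higher at 7 days. At an unadjusted p under 0.05 there were 3266 and 1647 entries. The numbers of entries called against the same unoperated libraries were 2223 at 3 days, 286 at 7 days and 81 at 3 weeks, and these 3 comparisons share their controls. Of the 4 falls from 3 days, HBG2 and HBA1 were globins. HBG2 had 263, 307 and 254 FPKM at 7 days, against 642, 605 and 569 FPKM at 3 days (log2 fold change -1.14, SE 0.09, adjusted p = 0.011). HBA1, the most abundant gene of the erythrocyte list, had 717, 785 and 731 FPKM at 7 days, against 1478, 1308 and 1346 FPKM at 3 days (log2 fold change -0.89, adjusted p = 0.041). Both were lower in all 3 libraries of 7 days.

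GPR17, a receptor of oligodendrocyte precursors that are about to mature, had 23.1, 26.3 and 25.9 FPKM at 7 days, against 38.5, 39.3 and 40.6 FPKM at 3 days (log2 fold change -0.65, SE 0.07, adjusted p = 0.048), and it had also fallen relative to unoperated frogs, with 40.7, 39.8 and 36.8 FPKM (log2 fold change -0.63, SE 0.07, adjusted p = 0.011). TOX2, an HMG-box factor, had 7.16, 6.58 and 6.67 FPKM at 7 days, against 12.3, 12.1 and 11.9 FPKM at 3 days (log2 fold change -0.79, SE 0.08, adjusted p = 0.039). The unoperated libraries had 5.26, 6.12 and 6.18 FPKM of TOX2, so its level at 3 days stood apart. SMIM10, a small membrane protein, had 4.9, 3.77 and 4.1 FPKM at 7 days, against 1.19, 1.16 and 1.02 FPKM at 3 weeks (log2 fold change 1.55, adjusted p = 0.019), while the unoperated libraries were spread over 5.51, 0 and 2.79 FPKM. C10orf53 was listed at 1.82, 1.87 and 1.52 FPKM at 7 days and at 0 in all libraries of 3 days and 3 weeks, and the unoperated libraries at 2.05, 0 and 0 FPKM. None of these calls held in every fit that left out a library.

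Several genes called at 7 days stood apart from the unoperated level at the other times too. They were chosen against the same unoperated libraries, so the other times are no independent support and the values are a description. NPY averaged 13.3 ± 1.46 FPKM unoperated, 34.6 ± 5.27 FPKM at 3 days, 43.4 ± 8.29 FPKM at 7 days and 35.5 ± 5.25 FPKM at 3 weeks (SD, n = 3 each). C1QA averaged 3.47 ± 0.315 FPKM unoperated, 9.99 ± 0.968 FPKM at 3 days, 9.54 ± 1.35 FPKM at 7 days and 8.37 ± 0.672 FPKM at 3 weeks. For both, the difference of 7 days from 3 days (adjusted p = 0.34 and 0.82) and from 3 weeks (adjusted p = 0.65 and 0.7) missed the threshold. APOE had its highest mean at 7 days, with 5.95 ± 0.313 FPKM unoperated, 9.35 ± 1.61 FPKM at 3 days, 17.4 ± 3.09 FPKM at 7 days and 12.6 ± 4.45 FPKM at 3 weeks, but the step from 3 days missed the threshold (log2 fold change 0.86, adjusted p = 0.089). FABP7 was lowest at 3 days, with 90.4 ± 15.9 FPKM unoperated, 41.9 ± 6.38 FPKM at 3 days, 52.1 ± 4.87 FPKM at 7 days and 85.1 ± 29.3 FPKM at 3 weeks. HMGCS1 in its more strongly lowered entry averaged 115 ± 3.46 FPKM unoperated, 74.6 ± 8.57 FPKM at 3 days, 65 ± 4.62 FPKM at 7 days and 60.9 ± 34.7 FPKM at 3 weeks, and the wide spread at 3 weeks came from library 1. That library also had 10197 FPKM of summed myelin transcripts, against 17533 and 19411 FPKM in the other 3-week libraries, so values at 3 weeks rest on libraries that differ among themselves.

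**Figure D4:**
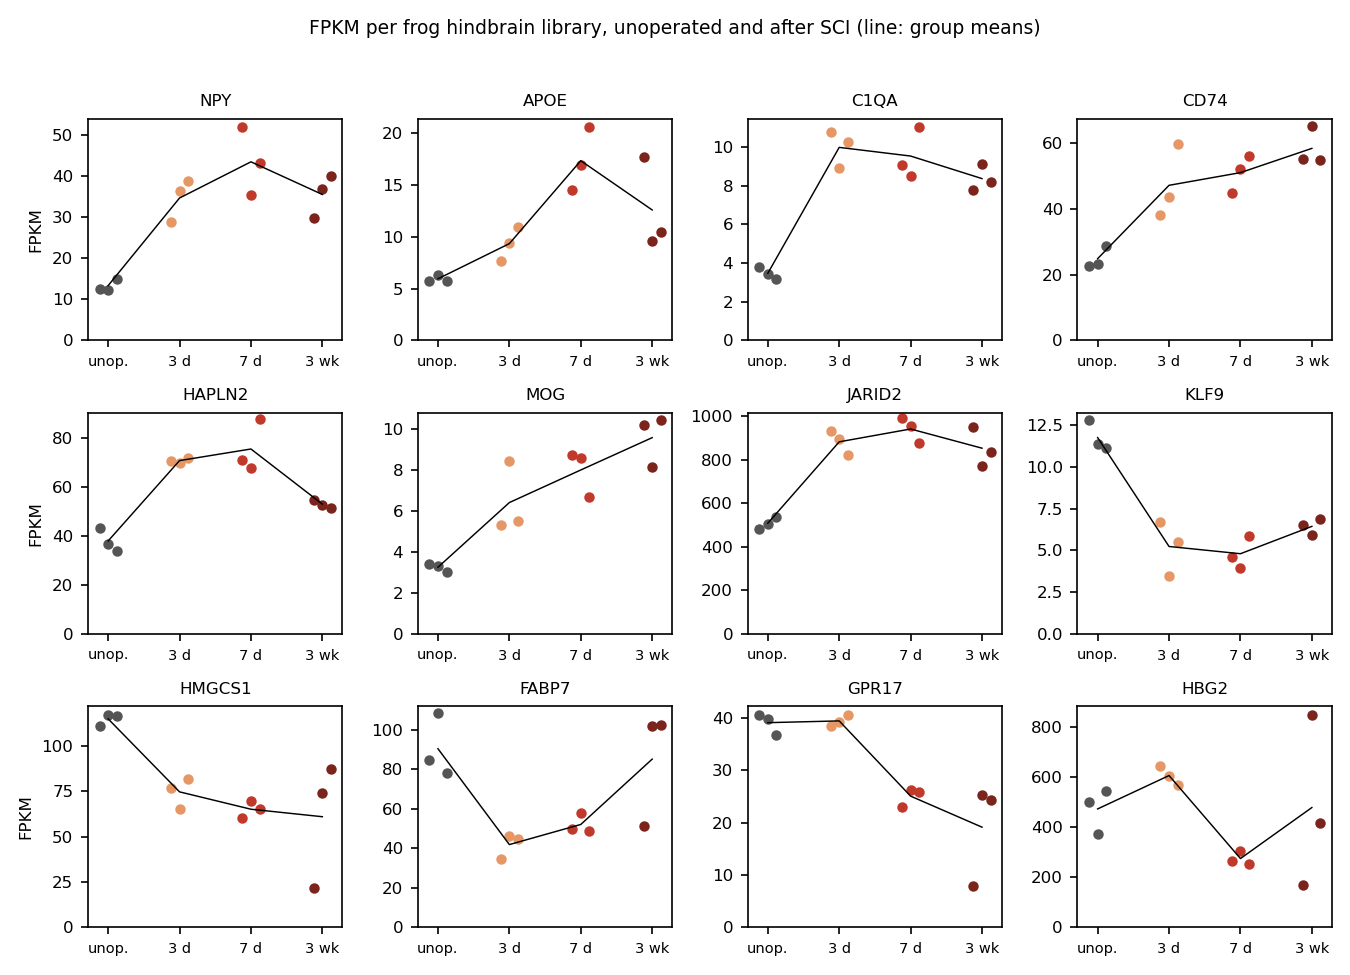
FPKM of 12 genes in each frog library that was unoperated or taken 3 days, 7 days or 3 weeks after SCI (points, 3 libraries each), with lines joining the group means. NPY, C1QA and CD74 stand above the unoperated level at all 3 times, KLF9 below it, and GPR17 and HMGCS1 have 1 low library at 3 weeks. The genes were called at 7 days against the same unoperated libraries, so the other times are no independent comparison.

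Tadpoles at the same time after the same injury gave a reference in which the axons regrow. The response of the tadpole hindbrain at 7 days against unoperated tadpoles had 976 calls among 19859 tested entries (4.91%), 566 (2.85%) of them higher and 410 (2.06%) lower after SCI. The difference between the frog and the tadpole response, tested as an interaction over 12 libraries, was called for 891 of 20496 entries (4.35%), 500 (2.44%) with the frog response above the tadpole response and 391 (1.91%) below it. A figure legend of the study describes the tadpole injury and control libraries as paired. With the replicate number as a block in both stages 381 differences were called, 246 with the frog response above and 135 below. With the block in tadpoles only there were 911, 537 above and 374 below, and the tadpole response itself then had 1098 calls, 609 higher and 489 lower after SCI. Frogs and tadpoles also differ in stage and age, so the stage and the ability to regrow axons cannot be told apart.

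Of the 286 entries called in frogs, 281 were tested in tadpoles and 42 were called there as well, 7 in the same direction and 35 in the opposite one. Since the frog calls chose these entries, the counts are a description. With the replicate block in tadpoles 48 were called there, 7 in the same direction and 41 in the opposite one, and ID3, MAT2A and 1 CES2 entry then missed the threshold in tadpoles (adjusted p = 0.054, 0.051 and 0.057). The 7 were ART5, PRPH, TMBIM4 and ID3, which rose in both, and MAT2A and both CES2 entries, which fell in both. PRPH had 233, 221 and 208 FPKM after SCI and 139.9, 171 and 162 FPKM unoperated in tadpoles (log2 fold change 0.49, adjusted p = 0.034). Of the 35 with opposite directions, 27 rose and 8 fell in frogs. They include both JARID2 entries, SUZ12, JHDM1D, both CD74 entries, B2M, HAPLN2, UGT8 and MTHFD2, which rose in frogs and fell in tadpoles, and EZH2, FABP7, FADS1 and HBE1, which fell in frogs and rose in tadpoles. SUZ12 had 33.9, 41.7 and 41 FPKM after SCI and 71.8, 65.8 and 66.8 FPKM unoperated in tadpoles (log2 fold change -0.81). EZH2 had 18.1, 18.1 and 15.2 FPKM after SCI and 12, 11 and 11.5 FPKM unoperated in tadpoles (log2 fold change 0.56). FABP7 had 2589, 2992 and 2397 FPKM after SCI and 1106, 1146 and 1173 FPKM unoperated in tadpoles (log2 fold change 1.21). The differences between the frog and tadpole responses, on the log2 scale, were 1.53 for SUZ12, -1.37 for EZH2 and -1.99 for FABP7.

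Cell division genes had lower log2 responses in frogs than in tadpoles, but many of them were near the floor in frogs. Of 40 tested entries 17 (42.5%) had a called difference, all with the frog response lower, and the median difference was -0.88. Only 21 of the 40 averaged 0.45 FPKM or more in a frog group. The others were tested only because of their level in tadpoles, and a frog response could hardly show in them. The median difference is thus close in size to the median tadpole response of the list, which was 0.91. In tadpoles 32 of 40 cell division entries (80%) rose, whereas in frogs none of 21 tested passed the test. Myelin genes went the other way, with 8 of 20 (40%) called differences, all with the frog response higher, and a median of 0.56. Microglial markers gave 7 of 23 (30.4%), all with the frog response higher, and a median of 0.57. Immediate early genes had 8 of 37 (21.6%) in the same direction, and in tadpoles 14 of 33 fell. Cholesterol synthesis genes had 6 of 37 (16.2%), all with the frog response lower. With the replicate block in both stages the called differences were 8 for cell division, 5 for myelin and 4 for microglial entries, and with the block in tadpoles only 19, 8 and 8, all in the directions given. Lens and photoreceptor transcripts, which varied between single libraries, had a median difference of -1.67 over 44 tested entries and no called difference.

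**Figure D5:**
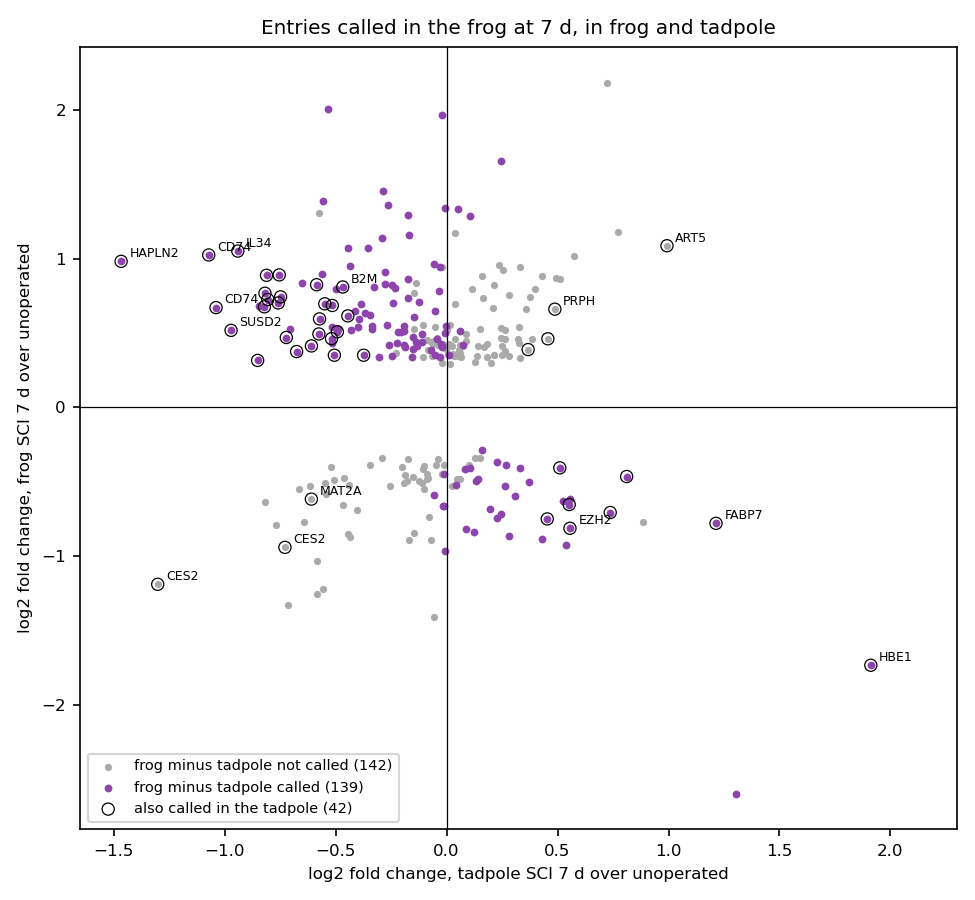
Log2 fold change at 7 days after SCI in frogs (vertical) and in tadpoles (horizontal) for the 281 entries called in frogs and tested in tadpoles. Purple points are the 139 with a called difference between both responses, grey points the other 142, and circles the 42 called in tadpoles as well, most of which lie in the quadrants of opposite sign. The entries were chosen by the frog response, so no point lies near 0 on the vertical axis.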

How the data were processed

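Hindbrain RNA of 5 pooled animals per library was depleted of ribosomal RNA, prepared with a stranded total RNA kit and sequenced on an Illumina NextSeq 500. The authors aligned the reads with Bowtie2 2.2.9 and TopHat2 2.1.1 to the Xenbase genome (scaffold positions in the entry names are from the JGI v7b assembly) and deposited FPKM values per gene model from Cufflinks and CuffDiff2. The library normalization mode of CuffDiff2 is not given in the sources used here, so an FPKM difference can also hold a scaling difference, and reads that fit both homeologs equally were divided between them. An exact 0 can be a failed estimate and is given as listed at 0.

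FPKM of 24381 entries were taken as deposited and transformed to log2(FPKM + 0.5). Entries that averaged 0.45 FPKM or more in one of the groups were tested with limma 3.58.1 in R 4.3.3, with a variance trend and Benjamini-Hochberg adjustment over all tested entries, and called at an adjusted p of at most 0.05. Each comparison was fitted on its own libraries, and the frog minus tadpole response as an interaction over 12 libraries. On simulated data of 20033 genes with the means and spreads of the 7-day comparison, 80 of 100 genes with a log2 change of 1 and 21 of 100 with one of 0.5 were called, and 2 unchanged genes. Changes were put only into genes averaging 1 FPKM or more, and noise was drawn independently for each gene. Precision is limited by 3 libraries per group, and the depth in reads is known only relative to one library.

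The 12 largest rises and 12 largest falls with a symbol were named, provided that one group averaged 1 FPKM or more and the libraries of the groups did not overlap, and up to 4 called entries in each direction per gene list. In each further comparison up to 5 rises and 5 falls were named, and in a list without a call the member with the highest mean. Genes named outside this rule are said to have been picked after their values were seen, or appear as the other entry of a named gene or as entries called in both stages. The members and the 41 gene lists were chosen with earlier results of these data known. Alternatives were median-of-ratios scaling, pseudocounts of 0.1 and 1, other filters on low values, no variance trend, robust variances, a fit over all 12 frog hindbrain libraries, a replicate block and leaving out each library. Frog libraries were not treated as paired by replicate number. A figure legend of the study describes the tadpole libraries as paired, without saying that the numbers mark the pairs, and the tadpole comparisons are given with and without the block. Some genes of the lists are counted but not reported here by name. Sequences were not used here.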

Additional observations from a re-analysis of the deposited data

Results flagged for a closer look

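The frog and tadpole responses at 7 days differed by the interaction test in limma for 891 entries, for 381 with a replicate block in both stages and for 911 with the block in tadpoles only. The 5 largest differences in each direction are given here on the log2 scale, frog minus tadpole. CHAC1, a glutathione-degrading enzyme of the stress response, had 3.08, 3.11 and 4.08 FPKM after SCI and 3.03, 3.06 and 2.49 FPKM unoperated in frogs, and 2.54, 2.54 and 2.78 FPKM after SCI and 32.1, 18.1 and 7.39 FPKM unoperated in tadpoles, and the difference of the responses was 2.65 (adjusted p = 0.013). In frogs CHAC1 did not pass the test (log2 fold change 0.22, adjusted p = 0.46), and its unoperated tadpole libraries were spread widely. NDUFA12, the complex I subunit, had 8.71, 5.81 and 6.18 FPKM after SCI and 1.47, 0.518 and 2.48 FPKM unoperated in frogs, and 5.31, 4.9 and 9.58 FPKM after SCI and 11.6, 5.42 and 13 FPKM unoperated in tadpoles, and the difference of the responses was 2.54 (adjusted p = 0.023). HAPLN2, the link protein of nodes of Ranvier, had 71.1, 68.1 and 87.9 FPKM after SCI and 43.4, 36.8 and 34 FPKM unoperated in frogs, and 2.36, 3.1 and 3.75 FPKM after SCI and 8.24, 10.5 and 9.15 FPKM unoperated in tadpoles, and the difference of the responses was 2.45 (adjusted p = 0.00018). HAPLN2 was higher after SCI in frogs and lower after SCI in tadpoles, with no overlap in either. CD74, the MHC class II invariant chain, in its more abundant entry, had 44.7, 52.2 and 56 FPKM after SCI and 22.5, 23.3 and 28.6 FPKM unoperated in frogs, and 13.9, 11.2 and 8.79 FPKM after SCI and 22.2, 24 and 25.6 FPKM unoperated in tadpoles, and the difference of the responses was 2.1 (adjusted p = 0.00025). IL34, a cytokine that maintains microglia, had 17.2, 18.3 and 15.3 FPKM after SCI and 8.56, 7.18 and 7.997 FPKM unoperated in frogs, and 2.11, 2.5 and 1.95 FPKM after SCI and 4.81, 4.46 and 4.67 FPKM unoperated in tadpoles, and the difference of the responses was 1.99 (adjusted p = 0.00016). CD74 and IL34 had the same pattern as HAPLN2.

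The globins HBE1 and HBZ of larval and embryonic blood made up 3 of the 5 largest differences in the other direction. HBE1, in the entry with little signal in frogs and 1 frog library listed at 0, had 0, 0.263 and 0.214 FPKM after SCI and 1.44, 1.22 and 0.582 FPKM unoperated in frogs, and 148, 126 and 72.4 FPKM after SCI and 13.6, 14.3 and 12.6 FPKM unoperated in tadpoles, and the difference of the responses was -4.23 (adjusted p = 0.00018). HBE1, in its other entry, had 10.4, 25.4 and 27.5 FPKM after SCI and 54.4, 71.4 and 73.2 FPKM unoperated in frogs, and 493, 552 and 318 FPKM after SCI and 132, 113 and 108 FPKM unoperated in tadpoles, and the difference of the responses was -3.65 (adjusted p = 0.001). HBZ, an embryonic alpha globin, had 4.34, 8.21 and 16.6 FPKM after SCI and 29.5, 32.9 and 34.8 FPKM unoperated in frogs, and 325, 295 and 162 FPKM after SCI and 87.3, 128 and 100.4 FPKM unoperated in tadpoles, and the difference of the responses was -3.13 (adjusted p = 0.0063). The list of erythrocyte markers, which holds HBZ but not HBE1, summed to 748 to 867 FPKM in the SCI libraries, against 957 to 1316 FPKM in the unoperated libraries of frogs, and the part of blood content in these differences was not tested. C1orf174, a gene of unknown role, had 24.9, 13.6 and 9.31 FPKM after SCI and 22, 19 and 26.9 FPKM unoperated in frogs, and 30.2, 26.7 and 36.4 FPKM after SCI and 10.6, 7.31 and 7.68 FPKM unoperated in tadpoles, and the difference of the responses was -2.40 (adjusted p = 0.0054). UCN, urocortin, a peptide of the corticotropin-releasing hormone family, had 0.199, 1.02 and 1.16 FPKM after SCI and 2.23, 2.13 and 1.81 FPKM unoperated in frogs, and 6.73, 6.07 and 7.57 FPKM after SCI and 1.94, 2.65 and 2.79 FPKM unoperated in tadpoles, and the difference of the responses was -2.39 (adjusted p = 0.0052). In frogs alone the log2 fold changes of C1orf174 and UCN missed the threshold (adjusted p = 0.33 and 0.12). NDUFA12 and HBE1 in its more abundant entry had themselves been called in frogs (adjusted p = 0.037 and 0.042), as had HAPLN2, CD74 and IL34.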

How the results depend on the processing

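All 71 named calls of the comparison of 7 days with unoperated frogs kept their direction under every alternative that was run, and 5 were called under every one. The groups did not overlap in these entries, so neither leaving out a library nor another pseudocount could have changed a direction. The filters, the variance settings, the replicate block and the fit over all 12 frog hindbrain libraries leave the difference of group means as it is. Only median-of-ratios scaling could have changed a direction, so the count of kept directions says little about robustness. Counts of calls were less stable. For 7 days after SCI against unoperated frogs, 286 calls became 31 with a replicate block, 49 without a variance trend and 14 to 215 with 1 library left out, and between 206 and 330 under the other alternatives. For 7 days against 3 days, 5 calls became 2 without a filter on low values, 265 with a replicate block, 1 without a variance trend, 19 with all 12 frog hindbrain libraries in one fit and 0 to 17 with 1 library left out. For 7 days against 3 weeks, 2 calls became 1 without a filter or with the filter in every library, 0 with a replicate block or all 12 frog libraries and 0 to 4 with 1 library left out. For the frog minus tadpole response, 891 calls became 381 with a replicate block in both stages, 911 with the block in tadpoles only and 362 (without tadpole SCI library 2) to 1926 (without tadpole SCI library 3). Fits without 1 library have fewer samples, and the other causes were not tested. The block in tadpoles only, and in the tadpole comparison itself, was chosen after seeing the data.

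The frog libraries were not treated as paired by replicate number. Deviations from the group means of same-numbered libraries correlated across entries with r of -0.127, 0.193 and -0.235 between 7 days and unoperated, and with 0.121, 0.124 and -0.038 between 7 days and 3 days. The correlations were weak in both comparisons, and of mixed sign. They were weak in the tadpoles below too, so they cannot decide whether the numbers mark pairs. The fall to 31 calls against unoperated frogs with the replicate block therefore remains a limit of that comparison. Between tadpole SCI and unoperated tadpole libraries, which the study describes as paired, same-numbered libraries had r of 0.18, 0.022 and 0.106, and 976 calls became 1098 with the block. A single library decided many calls, and weakly expressed entries are limited by depth, since 1 read is worth more FPKM in the shallower unoperated libraries.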

Other observations

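Genes outside the lists were picked after their values were seen, and are given as values among the 286 called entries. Lysosomal genes were not counted as a list, so the share of them that rose is not known. The lysosomal proteases CTSD, CTSB and CTSF rose (log2 fold changes 0.84, 0.41 and 0.30), as did the lysosomal membrane proteins LAMP1 and CD63 (0.41 and 0.37), the autophagy receptor SQSTM1 (0.41), the proton pump subunit ATP6V1D (0.38) and the glycosidase CTBS (1.16). CTSD had 8.88, 11.1 and 7.77 FPKM after SCI and 4.08, 4.97 and 5.8 FPKM unoperated. LAMP1 had 103, 109.9 and 109.8 FPKM after SCI and 79.9, 75.1 and 88.4 FPKM unoperated. IL34, a cytokine that maintains microglia, had 17.2, 18.3 and 15.3 FPKM after SCI and 8.56, 7.18 and 7.997 FPKM unoperated (log2 fold change 1.05), and SPIB, a transcription factor of B cells and myeloid cells, 1.44, 1.52 and 1.53 FPKM after SCI and 0.553, 0.545 and 0.481 FPKM unoperated (log2 fold change 0.96).

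NDRG2, FA2H and BCAS1 also rose. NDRG2, an astrocyte protein, had 1081, 1054 and 1099.8 FPKM after SCI and 646, 638 and 708 FPKM unoperated (log2 fold change 0.70). FA2H, which makes hydroxylated myelin lipids, had 71.9, 73 and 85.6 FPKM after SCI and 55.6, 54 and 52 FPKM unoperated (log2 fold change 0.50). BCAS1, a protein of myelinating oligodendrocytes, had 257, 238 and 253 FPKM after SCI and 166, 154 and 168 FPKM unoperated (log2 fold change 0.61). DOT1L, a histone H3 methyltransferase, rose and had 26.8, 20.9 and 21.1 FPKM after SCI and 12, 11.8 and 12.2 FPKM unoperated (log2 fold change 0.90). ACSS2, which makes acetyl-CoA from acetate, fell and had 18.5, 19.6 and 21.1 FPKM after SCI and 32.8, 31 and 32 FPKM unoperated (log2 fold change -0.68). MAT2A, which makes S-adenosylmethionine, fell and had 39.5, 37.7 and 36.3 FPKM after SCI and 57, 59.9 and 57.9 FPKM unoperated (log2 fold change -0.62). The RNA-binding protein TARDBP fell to 15.7, 15.5 and 15.9 FPKM after SCI, against 19.3, 20.5 and 20.1 FPKM unoperated (log2 fold change -0.34).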
